A study of Mus musculus and other sequences with 2 samples.

Results

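Rat-named assays made up 75 of the 750 miRNA assays on cards A and B of the TaqMan rodent array, and the other 675 were named for mouse. They were chosen by name alone, as every assay whose miRNA name begins with rno-, 37 of them on card A and 38 on the other card. The samples were 1 microdroplet of media conditioned by mouse embryos and 1 blank microdroplet, so that no test between the media was possible. For the conditioned sample, 25 compacted or cavitating morulae of CD1 mice were taken, from superovulated females of 3 to 4 weeks mated with CD1 males. These embryos spent the 17 h from 99 to 116 h post-hCG in 8 μL of KSOM in which PVA took the place of BSA. By 116 h all had become expanded blastocysts, as the study states, and the sample is labelled as blastocyst culture media. The blank sample was the same medium, cultured for 17 h without embryos, and 6 μL of each was profiled. The embryos were taken out before the fluid was lysed, and neither sample held rat material by its labels.

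MicroRNAs are short RNAs that guide an Argonaute protein to partly complementary mRNAs, chiefly through the seed at bases 2 to 8, and each hairpin precursor can give a mature sequence from its 5p arm and its 3p arm. Many mature sequences are identical in rat and mouse, and others differ in a base or at an end. A TaqMan miRNA assay copies its target with a stem-loop primer fitted to the 3′ end, so that such a difference can change what an assay amplifies. A well is read as its Ct, or threshold cycle, the point of the run where its fluorescence passes a set level. Ct runs opposite to the log2 of the amplified template, so that an earlier Ct stands for more of it. Detection here means a Ct below 35, and an undetermined well counts as not detected. The study's methods also asked for a minimum rise in fluorescence, ΔRn, to keep out false positives. That criterion was not applied here, so every well that crossed the threshold before cycle 35 counts, however early it did so. With it, the study counted fewer miRNAs as detected in each medium, and a smaller share of those screened, than are counted here. In the assay names, # marks the arm that was taken as minor.

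The oligonucleotides of the rat-named assays were not used here, and the sequences shown are mouse mature miRNAs of the same name, as RefSeq lists them for GRCm38.p6. Of the 75 assay names, 56 matched a mouse miRNA once the arm was left aside. Where an assay name gives no arm, both are shown or the arm is not decided, and a rat assay may target a sequence other than the one printed. Capitals mark the seed.
The first set belongs to the miR-290 cluster, since its rat-named and mouse-named assays gave contrasting values.
mmu-miR-293-5p: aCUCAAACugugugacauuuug
mmu-miR-293-3p: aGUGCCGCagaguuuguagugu
mmu-miR-294-5p: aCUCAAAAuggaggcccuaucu
mmu-miR-294-3p: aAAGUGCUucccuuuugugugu
The second set shows seeds shared between names detected with a rat assay and other members, which are the 3p arms of miR-17 and miR-20b, the 5p arms of miR-351 and miR-125b, the 3p arms of miR-743a and miR-743b, and the 5p arms of miR-743a and miR-871. The 5p arms of miR-17, miR-20a and miR-20b also share a seed, printed for miR-20b-5p in the last set. Among the members, rno-miR-17-3p names the 3p arm, and rno-miR-20a# and rno-miR-125b# carry the mark of a minor arm. The names of these assays therefore do not point to the 5p seeds given for their miRNAs.
mmu-miR-17-3p: aCUGCAGUgagggcacuuguag
mmu-miR-20b-3p: aCUGCAGUgugagcacuucuag
mmu-miR-351-5p: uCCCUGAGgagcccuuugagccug
mmu-miR-125b-5p: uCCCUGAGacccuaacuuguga
mmu-miR-743a-3p: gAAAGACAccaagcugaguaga
mmu-miR-743b-3p: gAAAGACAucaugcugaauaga
mmu-miR-743a-5p: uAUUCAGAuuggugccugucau
mmu-miR-871-5p: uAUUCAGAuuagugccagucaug
The third set holds names for which the rat-named and mouse-named assays can be set side by side in the results.
mmu-miR-20b-5p: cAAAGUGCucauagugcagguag
mmu-miR-653-5p: gUGUUGAAacaaucucuacug
mmu-miR-146b-5p: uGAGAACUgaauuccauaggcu
mmu-miR-190b-5p: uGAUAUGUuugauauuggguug
mmu-miR-409-3p: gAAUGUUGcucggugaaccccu
In GRCm38.p6, the arms of miR-293 lie in the gene Mir293 at chr7:3220356-3220377 and chr7:3220390-3220411 on the plus strand, and those of miR-294 in Mir294 at chr7:3220655-3220676 and chr7:3220691-3220712. The mature miR-653-5p lies at chr6:3721355-3721375 on the minus strand, within 1 kb of miR-489-3p at chr6:3721922-3721944. On the X chromosome, miR-743a-3p lies at chrX:66776760-66776781 and miR-743b-3p at chrX:66777266-66777287, both on the minus strand.

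Spread between wells was read from U6, a small nuclear RNA with 4 wells on each card. In conditioned media the SD of these wells was 0.68 cycles for card A and 0.83 for card B (n = 4), and in blank media it was 3.22 and 0.23. The SD of a difference between 2 wells, combined over both media, was 3.29 cycles for card A and 0.86 for card B. Without the earliest blank well of card A, at a Ct of 20.2, that card had a combined SD of 0.83. These SDs describe wells of 1 abundant RNA, and say nothing of other assays or microdroplets. Other control RNAs were less even between cards, and all were undetermined in blank media. In conditioned media, Y1 was undetermined on card A and had a Ct of 15.5 on card B, ahead of every U6 well. There, U87 had 32.7 on card A and was undetermined on card B. The Ct on cards A and B was 33.0 and 29.3 for snoRNA135, and 28.5 and 29.8 for snoRNA202. U6 itself was earlier with embryos, its conditioned minus blank Ct being -4.08 for card A and -7.07 for card B. The Ct values given here are as deposited, without normalization.

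In conditioned media, 23 of the 75 rat-named assays were detected, which is 30.7%, compared with 37.3% of all 750 miRNA assays and 38.1% of the mouse-named ones. In blank media, 20 were detected, or 26.7%, compared with 29.1% of all assays and 29.3% of the mouse-named ones. A rat-named assay was thus detected in a media sample without embryos nearly as often as in one with them. Both media shared 15 members, 20% of them, beside 23.5% of all assays. A further 8 were detected in conditioned media only, 10.7% beside 13.9% of all assays, and 5 in blank media only, 6.67% beside 5.6%. These shares lay close to those of the whole array, and no difference between the 2 sets of names was tested.

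The cards did not show the same picture. On card A, 9 of 37 rat-named assays were detected in conditioned media and 7 in blank media, compared with 140 and 115 of the mouse-named assays of that card. On card B, 14 of 38 rat-named assays were detected in conditioned media and 13 in blank media, compared with 117 and 83 of the mouse-named ones. The rat-named share was therefore the lower one on card A, at 24.3% beside 41.5% in conditioned media, and the higher one on card B, at 36.8% beside 34.6%. Each member was spotted once, and these shares were not tested against each other.

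The 8 members detected in conditioned media only had Ct values from 5.51 to 32.4, with a median of 29.3. The earliest was rno-miR-1#, the minor arm of the muscle miRNA miR-1, with a Ct of 5.51. It was followed by rno-miR-532-5p with 7.88 and rno-miR-293 with 9.01, and all 3 were undetermined in blank media. These 3 lay more than 9 cycles ahead of the earliest U6 well of either sample, which had a Ct of 18.99. The other 5 came much later. They were rno-miR-7# with 28.8, rno-miR-196c with 29.8, rno-miR-351 with 30.85, rno-miR-1 with 30.86 and rno-miR-871 with 32.4, none of which had a Ct in blank media. Of these, miR-7 is enriched in neural and endocrine cells, miR-196 genes lie in Hox clusters, and miR-871 belongs to an X-linked group known from testis. The study's own list of miRNAs exclusive to conditioned media, filtered also by ΔRn, holds miR-7a-1-3p at 28.8, miR-196c at 29.8 and miR-351 at 30.9. It lacks miR-1, miR-532-5p and miR-871, and its miR-293 has the Ct of the mouse-named assay, 24.6. Whether the 3 earliest wells stand for more template was not tested.

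Detection in blank media only was found for 5 members. The earliest was rno-miR-294, a name from the pluripotency-associated miR-290 cluster, with a Ct of 6.86, ahead of rno-miR-20b-3p with 11.5 and rno-miR-345-3p with 16.2. All 3 were undetermined in conditioned media. The latest were rno-miR-409-3P with 29.0, also undetermined in conditioned media, and rno-miR-743b with 33.1, which had a Ct of 37.1 there. Of the 5, miR-409 is part of the imprinted Dlk1-Dio3 cluster and miR-20b of the miR-106a to miR-363 cluster. Blank media thus held the second earliest Ct of any rat-named assay in either sample, after rno-miR-1# in conditioned media.

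Among the 15 members detected in both media, 7 had an earlier Ct with embryos and 8 without, and the median of conditioned minus blank was 0.15 cycles. The median over all 176 assays detected in both was 0.05. The size of the difference, regardless of sign, had a median of 4.04 cycles for the 15 and 2.15 for the 161 mouse-named assays, a contrast that was not tested. Only rno-miR-547, at 18.8 and 18.9 in conditioned and blank media, and rno-miR-664, at 26.6 and 26.5, differed by less than the U6 wells of their card. For card A the U6 measure rests on the outlying blank well.

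A Ct more than 5 cycles later in conditioned media was found for 3 of the 15, compared with 11.4% of all assays detected in both media. They were rno-miR-344, with a Ct of 22.3 in conditioned and 10.6 in blank media, rno-miR-653 with 21.7 and 10.03, and rno-miR-743a with 28.5 and 17.6. The differences were 11.7, 11.7 and 10.9 cycles. In all 3, the blank well was ahead of every U6 well. That is not particular to them, being seen also for mmu-miR-377 and mmu-miR-381, and it was not counted over all assays. In the genome, miR-653 and miR-489 share an intron of the calcitonin receptor gene, and rno-miR-489 was undetermined in both media. The opposite gap, with conditioned media ahead by more than 5 cycles, was found for 2 of the 15, beside 10.8% of all assays. These were rno-miR-465, an X-linked testis miRNA, with 16.3 and 22.9, and rno-miR-190b with 16.2 and 21.4.

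The other 8 members detected in both media, apart from rno-miR-547 and rno-miR-664, lay between these limits. In conditioned and blank media, rno-miR-146B, named for a miRNA that restrains inflammatory signalling, had a Ct of 23.3 and 27.4. The Ct was 13.1 and 16.8 for rno-miR-17-3p, from the miR-17 to miR-92 cluster, and 18.2 and 21.2 for rno-miR-20b, a member of the miR-17 seed family. A smaller gap was seen for rno-miR-148b-5p, with 24.0 and 24.9. All 4 were earlier in conditioned media. The others were later there, with 31.1 and 29.8 for rno-miR-880, 13.5 and 11.8 for rno-miR-99a#, 30.1 and 25.4 for rno-miR-632, and 28.6 and 23.8 for rno-miR-327. Relative to U6 of the same card, 14 of the 15 were later in conditioned media, with rno-miR-190b the exception at -1.13 cycles. Without the outlying blank U6 well all 15 were later. The U6 difference between media was -4.08 cycles for card A and -7.07 for card B. Over all assays detected in both media, the median difference was -0.115 for card A and 0.25 for card B. Relative to U6, every assay of a card moves later by the same amount, and no count over all assays was made.

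A mouse-named assay of the same name was present for 40 of the 75, and 41 pairs could be formed because miR-543 had 2 mouse-named assays. In 23 of the 41 pairs, or 56.1%, the rat-named and mouse-named assays fell in the same class of both media, conditioned media only, blank media only or neither. For 17 of the 23 the shared class was neither, and the only Ct values among these were 39.3 for rno-miR-343, 36.9 for rno-miR-350 and 35.6 for mmu-miR-505. Among the 24 pairs with at least 1 detected assay, both assays were detected in some medium for 9, the rat-named assay alone for 8 and the mouse-named one alone for 7. Names with 2 mouse-named assays gave a yardstick, with the same class in 15 of 26, or 57.7%, and in 10 of the 15 the class was neither. Of the 16 such names with a detected assay, 8 had both detected. No test compared these counts. In 21 of the 41 pairs the rat-named and mouse-named assays lay on different cards, whose U6 levels differed, and the class was the same in 11 of these and in 12 of the 20 pairs on 1 card.

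The miRNAs of the miR-290 cluster, which is active in pluripotent cells and the early mouse embryo, illustrate both outcomes. For miR-293, both assays were detected in conditioned media only, but the Ct was 9.01 with the rat-named assay and 24.6 with the mouse-named one, 15.6 cycles apart and on different cards. The mouse-named assay of the minor arm, mmu-miR-293#, was also detected in conditioned media only, at 19.6. For miR-294, again across cards, the classes were opposite. Its mouse-named assay reached 24.1 with embryos and 37.6 without, while the rat-named assay had 6.86 in blank media and none in conditioned media. The study also measured miR-293 and miR-294 with individual assays in further microdroplets. It reports both in blastocyst-conditioned media and not in blank media. That is the class of both mouse-named assays here, and the opposite of that of rno-miR-294. Whether the single early blank well of rno-miR-294 stands for template was not tested. Of 17 mouse-named assays of the cluster, 12 were detected with embryos and 0 in the blank sample.

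The same class with detection was found for 6 pairs, which were miR-293, miR-351, miR-344, miR-190b, miR-880 and miR-743a. For miR-351, whose seed is that of miR-125b-5p, the rat-named and mouse-named assays stood at 30.85 and 32.9 in conditioned media, with no Ct in blank media, a gap of 2.02 cycles. The remaining 4 of these were detected in both media with both assays, and here the difference between media could be compared. For miR-344, conditioned minus blank was 11.7 cycles with the rat-named assay and -2.07 with the mouse-named one, whose wells had 13.1 and 15.2. The sign was also opposite for miR-190b, at -5.21 and 0.036, and for miR-880, at 1.24 and -2.19. Only miR-743a kept its sign, at 10.9 and 3.85. The sign was therefore opposite in 3 of 4 names, with 1 well behind each Ct, and the 0.036 cycles of mmu-miR-190b were smaller than the spread of the U6 wells. Relative to the U6 of each assay's card the sign was opposite in 1 of 4, miR-190b, at -1.13 and 7.11, and in 0 of 4 without the outlying blank U6 well. Subtracting the U6 difference, -4.08 cycles for card A and -7.07 for card B, moves every value up. The sign is then largely set by U6, so these counts cannot tell whether the assays of a pair match.

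Where both assays of a pair were below 35 in the same medium, the median gap over 12 pairs of wells was 5.63 cycles, with a range of 0.32 to 17.8. For the 2 mouse-named assays of a name, 8 pairs of wells gave a median gap of 3.74 cycles and a range of 1.25 to 14.7. On 1 card, 5 pairs of wells had a median gap of 4.62 cycles, and across cards 7 had 5.77. The smallest gap, across cards, was that of miR-190b in conditioned media, at 16.2 with the rat-named and 15.9 with the mouse-named assay. The largest, also across cards, was that of miR-409-3p in blank media, at 29.0 and 11.1, and its mouse-named assay had 7.82 in conditioned media, where the rat-named assay was undetermined. For miR-146b, the rat-named assay was 8.36 cycles earlier than the mouse-named one in conditioned media, at 23.3 and 31.7 on different cards, and it alone had a Ct in blank media.

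Detection with the rat-named assay alone occurred for 8 names: the muscle miRNA miR-1, the X-linked miR-871, miR-465, miR-547 and miR-20b, and miR-327, miR-345-3p and miR-653. The mouse-named assays of these names were undetermined in both media, except mmu-miR-547 with a Ct of 35.4 in blank media. Detection with the mouse-named assay alone occurred for 7 names. Of these, mmu-miR-339-3p had a Ct of 31.96 in conditioned media only, and the other 6 were detected in both. They were mmu-miR-673, with 4.46 in conditioned and 9.92 in blank media, mmu-miR-377 with 25.2 and 8.29, mmu-miR-381 with 27.2 and 10.6, mmu-miR-421 with 21.3 and 20.6, mmu-miR-711 with 22.0 and 21.3, and mmu-miR-551b with 19.8 and 19.7. The rat-named assays of 3 of the 7 are names of the Dlk1-Dio3 cluster, and of these rno-miR-377 was undetermined, rno-miR-381 had 36.4 in conditioned media and rno-miR-673 had 36.6 in blank media.

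The members were then read by group, each a list of miRNA numbers that is set beside the shares of all 750 assays, 23.5% in both media, 13.9% in conditioned media only and 5.6% in blank media only. Of 9 rat-named members of the X-linked miR-506 superfamily, known mainly from testis, 4 were detected in both media, 1 in conditioned media only (rno-miR-871), 1 in blank media only (rno-miR-743b) and 3 in neither. Of 27 mouse-named members, the same counts were 8, 1, 1 and 17. The rat-named members of the Dlk1-Dio3 list numbered 8, of which rno-miR-409-3P was the only one detected, and in blank media. Its rat-named assays were those for miR-377, miR-379, miR-381, miR-382, miR-409, miR-543 and miR-673. The list left out miR-666, which RefSeq places in the same stretch of chromosome 12 at chr12:109717103-109717124, and whose rat-named assay was undetermined in both media. For the 73 mouse-named members, 17 were detected in conditioned media and 20 in blank media. Of 5 rat-named members of the miR-17 superfamily, which promotes proliferation, 2 were detected in both media, 1 in blank media only and 2, rno-miR-20a# and rno-miR-25#, in neither. That list goes by number, and all of these but rno-miR-20b are named for a 3p or minor arm. Their names do not point to the 5p seed of miR-17, miR-20a and miR-20b. Of the 22 mouse-named members of the superfamily, 7 were detected in both media, 3 in conditioned media only and 12 in neither. Both rat-named muscle assays, rno-miR-1 and rno-miR-1#, were detected in conditioned media only. Of 9 mouse-named muscle assays, 3 were detected in both media, 2 in conditioned media only and 4 in neither. Of 6 neural names, rno-miR-344 was detected in both media, rno-miR-7# in conditioned media only and 4 in neither, which were rno-miR-7a#, rno-miR-204#, rno-miR-219-1-3p and rno-miR-344-5p. Of 17 mouse-named ones, 3 were detected in both media, 1 in conditioned media only, 2 in blank media only and 11 in neither. The list headed epithelial and mesenchymal was mixed, and also held miR-146 and the Hox-cluster miR-196. Of its 5 rat-named members, rno-miR-146B and rno-miR-99a# were detected in both media and rno-miR-196c in conditioned media only. The other 2, rno-miR-125b# and rno-miR-489, were detected in neither. Of 44 mouse-named ones, the counts were 11 in both media, 10 in conditioned media only, 1 in blank media only and 22 in neither.

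The mark # stood in the names of 14 members, and assays that give their arm as 3p or 5p were not counted with them. Of the 14, 3 were detected in conditioned media and 1 in blank media, beside 20 and 19 of the 61 without. Of the 108 mouse-named assays with #, the counts were 30 and 17, beside 227 and 181 of 567. The 3 rat-named ones were rno-miR-1#, rno-miR-7# and rno-miR-99a#, and mmu-miR-7, the major arm of the second, had a Ct of 16.0 in conditioned and 15.7 in blank media. None of these counts was tested.

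Part of the rat-named detection came from wells ahead of every U6 well. In conditioned media, 9 of the 23 detected members had such a Ct, and in blank media 9 of 20, with 3 members in common, rno-miR-17-3p, rno-miR-99a# and rno-miR-547. In conditioned media alone, these were rno-miR-1#, rno-miR-532-5p, rno-miR-293, rno-miR-190b, rno-miR-465 and rno-miR-20b. In blank media alone, they were rno-miR-294, rno-miR-653, rno-miR-344, rno-miR-20b-3p, rno-miR-345-3p and rno-miR-743a. In all, 15 of the 75 members, 20%, had at least 1 such well, compared with 94 of 675 mouse-named assays, 13.9%. Over all 750 assays, 78 of the 280 detected in conditioned media and 78 of the 218 detected in blank media had such a Ct. Of the 109 assays with at least 1 such well, 47 had it in both media. These counts were not tested against each other. Apart from such wells, 14 members were detected in conditioned media and 11 in blank media. Among the assays with no such well in either medium, which is a narrower set, 6 were detected in both media, 5 in conditioned media only and 2 in blank media only, and none differed by more than 5 cycles.

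The other 47 rat-named assays were detected in neither medium. A late Ct was present for 6 of them, at 37.6 for rno-miR-347, 36.9 for rno-miR-350 and 36.4 for rno-miR-381 in conditioned media, and at 39.3 for rno-miR-343, 36.6 for rno-miR-673 and 37.8 for rno-miR-878 in blank media. The remaining 41, or 54.7% of the members beside 52.0% of the mouse-named assays, were undetermined in both. On card A these were rno-miR-207, rno-miR-219-1-3p, rno-miR-333, rno-miR-336, rno-miR-339-3p, rno-miR-344-5p, rno-miR-346, rno-miR-349, rno-miR-377, rno-miR-409-5p, rno-miR-421, rno-miR-450, rno-miR-466b, rno-miR-466c, rno-miR-505, rno-miR-543, rno-miR-598-5p, rno-miR-742, rno-miR-760-5p and rno-miR-881. On card B they were rno-miR-7a#, rno-miR-20a#, rno-miR-24-1#, rno-miR-25#, rno-miR-29b-1#, rno-miR-29c#, rno-miR-105, rno-miR-125b#, rno-miR-135a#, rno-miR-204#, rno-miR-220, rno-miR-352, rno-miR-379#, rno-miR-382#, rno-miR-489, rno-miR-504, rno-miR-513, rno-miR-551B, rno-miR-666, rno-miR-711 and rno-miR-876. An undetermined well says that no product crossed the threshold with this assay, and sets no limit on the miRNA in the media.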

How the data were processed

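One conditioned and 1 blank media sample were profiled on TaqMan Rodent MicroRNA Array v3.0 cards A and B, with reverse transcription, 12 cycles of pre-amplification and no dilution. The Ct values deposited by the authors were exported from the instrument software without normalization, and lie on an inverted log2 scale. Neither threshold nor baseline settings were given in the sources used here. A deposited table of fold changes between the media, calculated by the authors, was not used, and depth is unknown, since a Ct holds no count.

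Detection was a Ct below 35. Each medium had 1 sample, so the media were not tested against each other. Names were matched without regard to letter case. The members, lists and tests were chosen with earlier results of these data known. Every member is named, and Ct values are given for those below 35 in either medium or paired with a mouse-named assay of the same name. The limit for early wells was the earliest U6 Ct, 18.99, and was set after the values were seen, as were the comparison of same-name assays relative to U6 and by card. Group lists were sets of miRNA numbers, matched in rat-named and mouse-named assays alike, and minor-arm assays were those whose name ends in #. The study's ΔRn criterion was not applied, and ΔRn was not analysed here. Alternatives were Ct limits of 32 and 38 or any Ct, a 3-cycle limit, unique names, each card alone, U6 or card-median scaling, names matched without the arm, and early wells left out. Counting was tested on simulated data of 200 assays, where 6 of 6 checks passed. Python 3.11.15, pandas 2.3.3 and numpy 2.4.6 were used.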

Additional observations from a re-analysis of the deposited data

How the results depend on the processing

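Each Ct came from 1 well of 1 microdroplet, so the depth of the data limits every statement to these wells. Under Ct limits of 32 and 38, any determined Ct and unique names, 22 to 27 members were detected in conditioned media, 19 to 23 in blank media, 15 to 16 in both, 7 to 11 in conditioned media only and 4 to 7 in blank media only. The cards taken alone, A then B, gave 9 and 14 detected members with embryos, 7 and 13 without, 5 and 3 in conditioned media only, and 3 and 2 in blank media only, and card A gave 4 in both media. With early wells left out, conditioned media had 14 and blank media 11. Leaving out every assay with an early well in either medium gave 6 in both, 5 in conditioned media only and 2 in blank media only, with 0 over 5 cycles later and 0 over 5 cycles earlier. A limit of 3 cycles gave 5 later and 5 earlier. Relative to U6, 10 were over 5 cycles later and 0 earlier, and the median difference was 7.22 cycles, with the outlying blank U6 well kept or left out, the latter chosen after seeing the data. These counts shift because U6 was itself earlier in conditioned media, which moves every assay of a card alike, and they were not made for all assays. Centring on the card median gave 3 later, 2 earlier and a median of -0.11 cycles. Names matched without the arm gave the same class for 30 of 58 members, and leaving out early wells for 18 of 26, beside 22 of 40 members in the main setting, where the 23 of 41 given above count miR-543 with each of its 2 mouse-named assays. No paired analysis was possible because the labels carry no replicate numbers and each medium has 1 sample.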

Other observations

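Some rat-named assays without a mouse-named partner of the same name had one for another arm of the hairpin, or for the same arm under a different name. For miR-17, whose 3p arm shares its seed with miR-20b-3p, rno-miR-17-3p had a Ct of 13.1 in conditioned and 16.8 in blank media, whereas mmu-miR-17# was undetermined in both. The major arm, mmu-miR-17, had 19.2 and 19.3. In the same way rno-miR-532-5p had 7.88 in conditioned media, while mmu-miR-532 was undetermined in both media and mmu-miR-532-3p had 30.3 in conditioned media only. For miR-99a, the assay named for the minor arm, rno-miR-99a#, had 13.5 and 11.8, and that for the major arm, mmu-miR-99a, had 32.8 in conditioned media only. The reverse order was seen for miR-598, where rno-miR-598-5p was undetermined in both media and mmu-miR-598 had 10.9 and 12.0. For miR-743b, rno-miR-743b had 37.1 and 33.1, mmu-miR-743b-5p had 26.2 and 33.4, and mmu-miR-743b-3p was undetermined in both. These comparisons were picked after their values were seen, and each rests on single wells. The Ct values of rno-miR-17-3p, rno-miR-532-5p, rno-miR-99a# and mmu-miR-598 all lay ahead of every U6 well.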
